A study of Mus musculus with 8 samples.

Results

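The antioxidant enzymes and NADPH oxidases of the mouse heart were examined in RNA sequencing libraries of left ventricles (LVs) taken after angiotensin II (angII) infusion. Members were chosen by gene symbol: NADPH oxidase genes such as *Cyba*, *Cybb*, *Ncf1*, *Ncf4* and *Nox4*, the superoxide dismutases and catalase, the peroxiredoxins with sulfiredoxin, the thioredoxin system, the glutathione peroxidases, the enzymes of glutathione synthesis and reduction, the glutathione S-transferases, and *Nfe2l2*, *Keap1*, *Nqo1*, *Hmox1* and *Hmox2*. The choice used names and a floor on expression, not a difference between groups. Of 64 rows of the table with such a symbol, 55 had 1 CPM (count scaled to a common library total) or more in 2 or more libraries, out of 13542 genes that did so among 46040. The 9 rows that did not were *Gpx2*, *Gpx5*, *Gpx6*, *Gsta2*, *Gstm3* and *Gstt4*, with at most 11 counts in any library, and second rows of *Gstp1*, *Gstp2* and *Txnrd2* without a count.

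All 8 libraries came from male C57BL/6 mice aged 5 to 7 months that received angII at 0.1 mg/kg/h from an implanted minipump for 14 days. By its genotype tag, 1 set of 4 libraries was wildtype (littermate controls) and the other 4 were VEGFR1_TK -/-, here VEGFR-1 TK-/-. This allele of *Flt1* lacks the tyrosine kinase domain of VEGFR-1 in every cell. The labels contradict each other, since each sample title names the genotype that the tag and the library name do not. Groups follow the tags and are named control-tagged and TK-/- tagged (VEGFR-1 TK-/-) below. Fold changes are given as the second over the first, so that their signs turn if the titles are right. The source label names LV tissue where the library names refer to cardiomyocytes, and the labels describe removal of ribosomal RNA where the methods describe poly-A selection. Mice that died before the end of the infusion are not represented, and libraries without angII were not analysed here, so no value below is a response to angII.

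NADPH oxidases are membrane enzymes that pass electrons from NADPH to oxygen and so make superoxide or hydrogen peroxide. In phagocytes the catalytic subunit NOX2 sits beside p22phox and is switched on by cytosolic subunits, and angII is a classical trigger of this complex in vessels and heart. Superoxide dismutases turn superoxide into hydrogen peroxide, which catalase, peroxiredoxins and glutathione peroxidases remove. The peroxiredoxins and glutathione peroxidases do so with electrons from thioredoxin or glutathione. The transcription factor NRF2, held down by KEAP1 at rest, raises many of these enzymes when cells meet oxidants or electrophiles.

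Counts per library lay between 11449137 and 16239670. The only gene called between the groups was *Flt1* itself, with a normalized CPM (CPM after TMM scaling of the library total) of 69.3 ± 11.3 and 158 ± 13.2 (SD, n = 4 per group) and a log2 fold change of 1.19 (SE 0.12, FDR = 0.00808, edgeR). Its count is over the whole gene, kinase domain or not, and so does not settle the labels. FDR stands for the p of edgeR's quasi-likelihood test after Benjamini-Hochberg adjustment across the 13542 genes that reached the CPM minimum. A called gene has an FDR below 0.1 and a change of at least 1.5-fold. Among the libraries, control-tagged replicate 2 had the lowest summed level of 8 cardiomyocyte markers (60968 normalized CPM against 80709 to 85962 in the other control-tagged libraries), and TK-/- tagged replicate 3 the highest (99600 against 77128 to 84400 in the others of its group). The same replicate 2 had the highest and the same replicate 3 the lowest summed level of leukocyte and of fibroblast markers. In LV tissue, fewer cells of a type and less RNA per cell cannot be told apart. The labels do not say more of the replicates than that they are separate libraries, so p-values measure the spread between these libraries.

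None of the 55 members was called between the groups by the quasi-likelihood test, against a background of 0.00738% of all genes, and the lowest FDR among them was 0.505. The likelihood ratio test and DESeq2 also called 0 members, where they called 0.391% and 0.236% of all genes. An unadjusted p under 0.05 was reached by 2 members, *Gstm2* and *Gsta3*, which is 3.64% of them where 8.96% of all genes reached it. Both were higher in the TK-/- tagged group, as were 3.32% of all genes at this p. In no member were the groups free of overlap, against 4.98% of all genes. The median log2 fold change was 0.03 over the members and −0.00 over all genes, and the median size without its sign was 0.13 in both. Of the members, 29 were higher and 26 lower by the fitted value, where 49.7% of all genes were higher. Over the 54 members that reached the CPM minimum in libraries of both groups, the fitted value ran from −0.36 for *Gstp2* to 0.58 for *Gsta3*. These are failures to pass the test and not a showing that levels were equal. In 39 of the 55 members the 95% interval of the log2 fold change stayed below a 1.5-fold change either way, and in 16 it reached past that size. Together the members took 0.661% ± 0.0172 of the counts in the control-tagged and 0.689% ± 0.0443 in the TK-/- tagged libraries (SD, n = 4 per group).

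**Figure D1:**
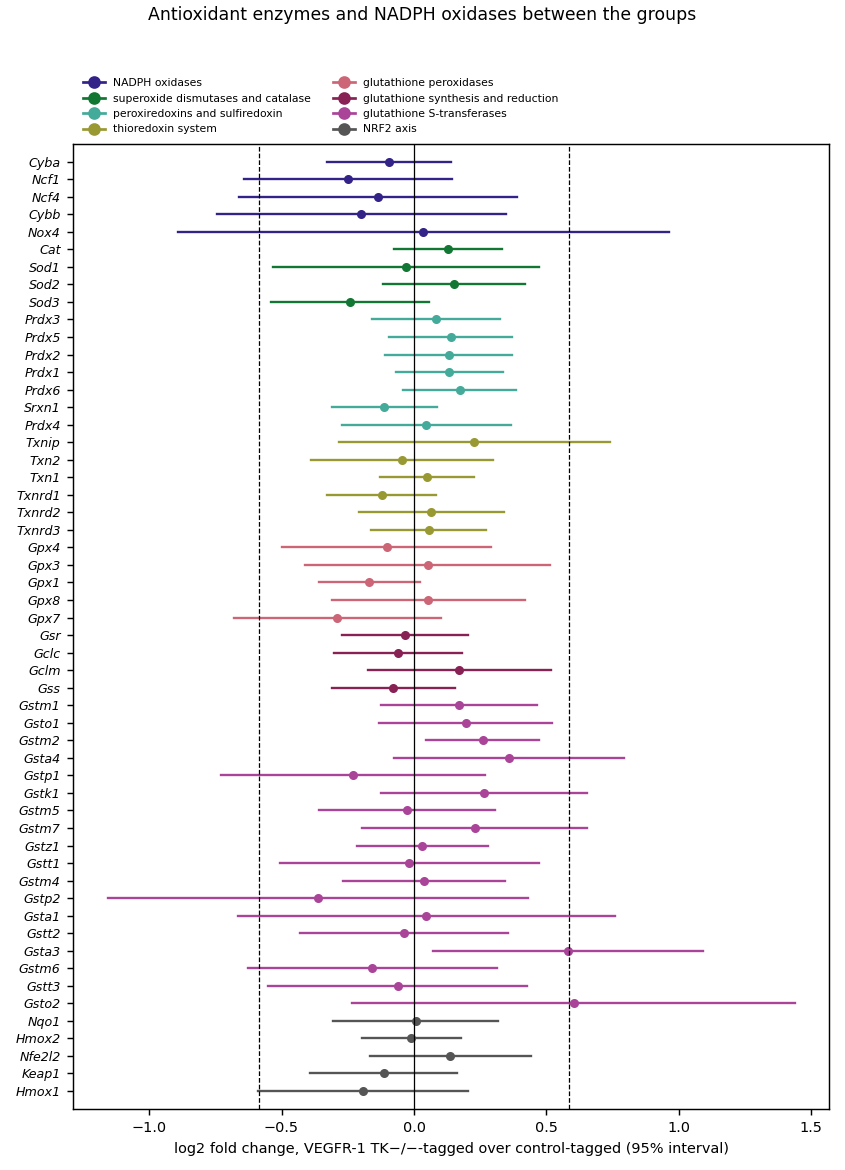
Log2 fold change of 54 of the 55 members, TK-/- tagged against control-tagged libraries (x axis), grouped by role, with points for the fitted values and bars for 95% intervals (edgeR's quasi-likelihood fit, n = 4 per group). No member passed the test, and 38 of the intervals drawn stay below a 1.5-fold change either way.

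Transcripts of the enzymes that remove peroxides were more abundant than those of most oxidase subunits. Levels of different genes are compared here as normalized CPM per kilobase of exon, averaged over all libraries. *Gpx4*, the glutathione peroxidase that reduces lipid hydroperoxides in membranes, stood highest at 422 per kilobase. Next came *Gpx3*, the secreted glutathione peroxidase of plasma, at 241 per kilobase. *Txnip*, which binds and inhibits thioredoxin, had 192, and the mitochondrial peroxiredoxins *Prdx3* and *Prdx5* had 177 and 175. The oxidase subunits were near the other end, with 1.83 for *Cybb* and 0.336 for *Nox4*, the lowest of the 55. *Cyba* was the exception among them, at 29.99 per kilobase. Exon length here joins the exons of all annotated transcripts, which understates genes with a long rare isoform.

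**Figure D2:**
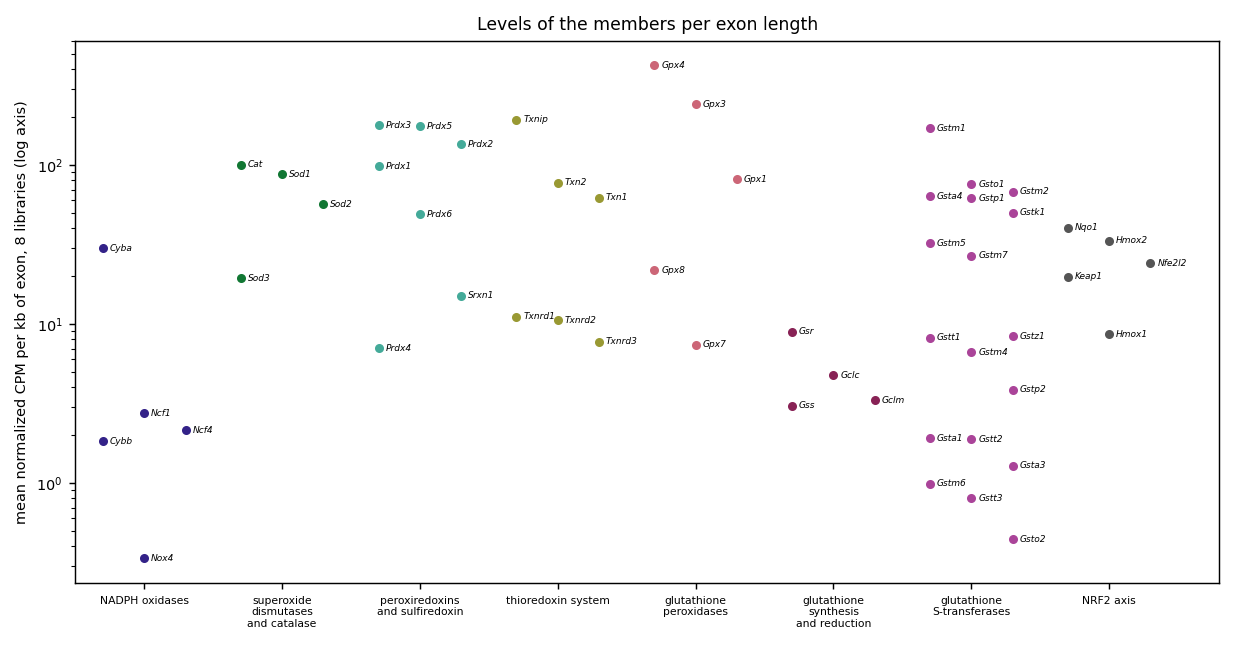
Mean level of 54 of the 55 members over the 8 libraries in normalized CPM per kilobase of exon (log axis), ordered within its role. *Gpx4* is highest at 422 per kilobase and *Nox4* lowest at 0.336 per kilobase.

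The transcript of NRF2 and those of its regulator and classical targets did not pass the test between the groups. *Nfe2l2*, the gene of NRF2, had a normalized CPM of 94.3, 73.2, 70.1 and 111 in the control-tagged replicates 1 to 4 and of 93.2, 88.2, 97.9 and 103 in the TK-/- tagged replicates 1 to 4. The second group lay inside the range of the first. Its log2 fold change was 0.14 (SE 0.14, FDR = 0.800, edgeR). *Nqo1* (ENSMUSG00000003849, chromosome 8, 107388225 to 107403206), the quinone reductase that serves as the textbook NRF2 target, had 67.2, 53.4, 59.4 and 70.5 in the control-tagged and 65.7, 54.8, 79.6 and 51.3 in the TK-/- tagged libraries. The highest and the lowest library were both in the latter group, and the log2 fold change was 0.01 (SE 0.14, FDR = 0.994, edgeR). *Keap1*, which targets NRF2 for degradation, had 96.5 ± 19.1 and 89.2 ± 5.54 (SD, n = 4 per group), with 124 in control-tagged replicate 3 and 84.4 to 96.7 elsewhere. *Hmox1*, the inducible heme oxygenase, had 16.1 ± 3.95 and 14.1 ± 2.05, and *Hmox2*, the constitutive one, had 74.4 ± 4.22 and 73.8 ± 4.31. An RNA level does not report on NRF2 protein, which is regulated mainly by its stability. Exons of *Hmox2* share 892 bases with *Cdip1* and those of *Keap1* 510 bases with a gene on the opposite strand, and whether counting used strand is not given in the sources used here.

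NRF2 binds the antioxidant response element, whose core was searched as TGACNNNGC on both strands of promoter windows from RefSeq (GRCm38.p6), which run from 250 bases before to 50 after a start. Windows were at hand for 46 of the 55 members. The core was present for 9 members (19.6%): *Gclm*, *Gsta3*, *Gstm5*, *Gstm7*, *Nfe2l2*, *Prdx1*, *Sod1*, *Srxn1* and *Txnrd1*. By windows these were 9 of 61 (14.8%), beside 4063 of 32817 windows of all genes (12.4%). The stretches below show the core, in capitals, in members of different roles and on both strands, with *Gsta3* included because its difference between the groups had an unadjusted p under 0.05. Each is written 5′ to 3′ on the strand named, and a core on the opposite strand reads GCNNNGTCA.
Nfe2l2, NRF2 itself, chr2:75704880-75704913, minus strand: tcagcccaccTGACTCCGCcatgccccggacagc
Gsta3, glutathione S-transferase, chr1:21240449-21240487, plus strand: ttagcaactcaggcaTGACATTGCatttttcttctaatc
Gstm7, glutathione S-transferase, chr3:107931720-107931758, minus strand: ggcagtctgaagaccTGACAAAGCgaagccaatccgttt
Gclm, glutathione synthesis, chr3:122245408-122245446, plus strand: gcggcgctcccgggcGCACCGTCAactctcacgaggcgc
Prdx1, cytosolic peroxiredoxin, chr4:116685451-116685489, plus strand: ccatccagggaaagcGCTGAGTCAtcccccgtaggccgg
Txnrd1, cytosolic thioredoxin reductase, chr10:82859099-82859137, plus strand: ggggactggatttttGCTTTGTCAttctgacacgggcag
A match describes the letters of a window and is not evidence of binding. Counted from the start, the first base of the core lay at −121 in *Gsta3* and at −92 in *Txnrd1*. Of all 9 members with the core, *Gsta3* had the largest log2 fold change, 0.58, and *Txnrd1* the lowest, −0.12, and none was called. *Gstm7*, *Gclm*, *Nfe2l2* and *Prdx1* had 0.23, 0.17, 0.14 and 0.13. *Gstm5*, *Sod1* and *Srxn1*, whose stretches are not printed, had −0.03, −0.03 and −0.11. The window of *Gstm2*, the other member with an unadjusted p under 0.05, did not hold these letters. Bases outside the windows were not searched, nor were members without a window, among them *Hmox1*, *Gclc* and *Gsr*. A window without the core therefore does not show that a gene lacks the element.

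Of 5 NADPH oxidase genes described here, 4 had a lower and 1 a higher fitted level in the TK-/- tagged libraries, with a median log2 fold change of −0.14, and 0 passed the test. *Cyba* (ENSMUSG00000006519, chromosome 8, 122424776 to 122432930), which encodes p22phox, had 32.4, 36.2, 29.7 and 30.4 in the control-tagged and 35.2, 27.6, 29.1 and 28.7 in the TK-/- tagged libraries. Its groups overlapped, and its log2 fold change was −0.09 (SE 0.11, FDR = 0.827, edgeR). The p22phox protein also pairs with NOX4.

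*Cybb* (ENSMUSG00000015340, chromosome X, 9435252 to 9487771) encodes NOX2. Its normalized CPM was 8.61, 15.5, 8.88 and 12.5 in the control-tagged replicates 1 to 4 and 11.7, 10.9, 5.53 and 11.4 in the TK-/- tagged replicates 1 to 4. Control-tagged replicate 2 was the highest and TK-/- tagged replicate 3 the lowest of all libraries, and the other libraries were mixed between them. The log2 fold change was −0.20 (SE 0.25, FDR = 0.845, edgeR), and it was 0.19 without those 2 libraries, an alternative added after the values were seen.

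The cytosolic subunits shared this order of libraries in part. *Ncf1*, which encodes the organizer p47phox, had a normalized CPM of 9.13, 14.5, 9.21 and 10.95 in the control-tagged and 8.94, 8.70, 7.82 and 11.4 in the TK-/- tagged libraries. Its extremes were again control-tagged replicate 2 and TK-/- tagged replicate 3, and the log2 fold change was −0.25 (SE 0.18, FDR = 0.714, edgeR). Exons of *Ncf1* share 408 bases with *Gtf2ird2* on the opposite strand. *Ncf4*, the gene of p40phox, had a normalized CPM of 4.87, 4.28, 5.18 and 3.84 against 6.18, 3.46, 2.77 and 4.14, with both extremes TK-/- tagged (log2 fold change −0.14, SE 0.24, FDR = 0.895, edgeR).

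*Nox4* (ENSMUSG00000030562, chromosome 7, 87246096 to 87398710), the constitutively active oxidase of vessel wall cells, fibroblasts and cardiomyocytes, varied most of the 55 members. Its normalized CPM was 2.17, 4.50, 1.88 and 2.72 in the control-tagged replicates 1 to 4 and 5.28, 1.78, 1.19 and 3.27 in the TK-/- tagged replicates 1 to 4, a ratio of 4.46 between the highest and the lowest. Both extremes were TK-/- tagged. The log2 fold change was 0.03 (SE 0.42, FDR = 0.987, edgeR), with a 95% interval of −0.89 to 0.96. It had 15 to 65 counts per library.

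**Figure D3:**
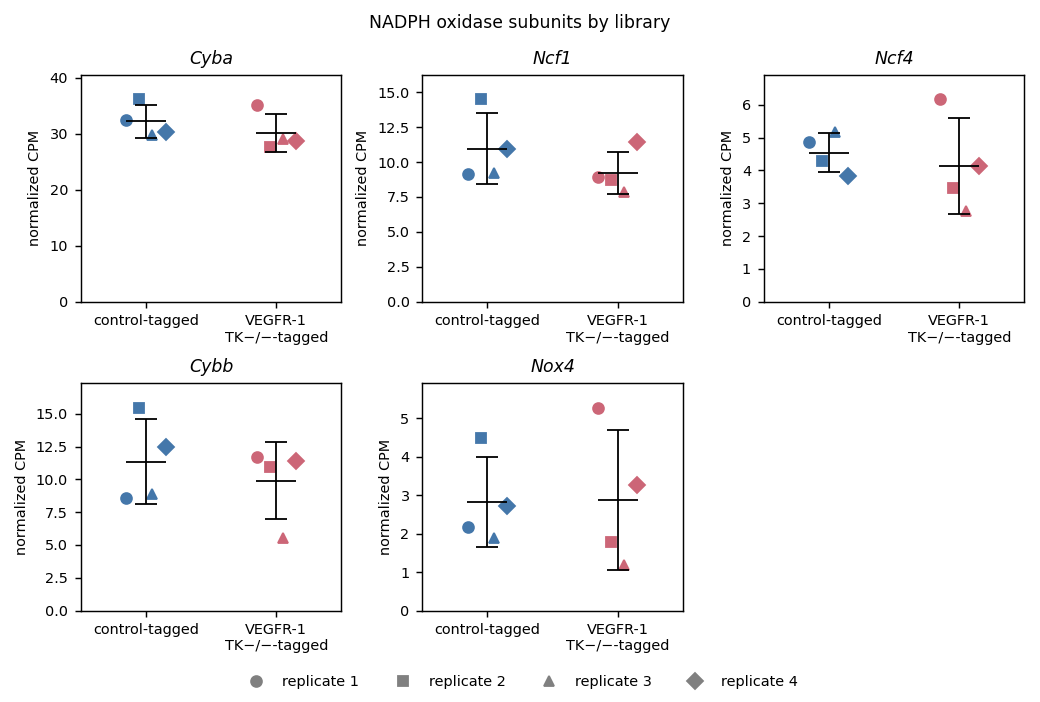
Normalized CPM of 5 NADPH oxidase genes in each of the 8 libraries, with points for libraries and bars for the mean and SD of each group (n = 4). The groups overlap in all 5 genes, and *Nox4* ranges from 1.19 to 5.28.

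The 14 leukocyte markers were all lower by fitted value in the TK-/- tagged libraries, and none was at 0. An unadjusted p under 0.05 was reached by 3 of them, where 8.96% of all genes reached it. The 14 markers summed to 497 to 629 normalized CPM in the control-tagged and 330.5 to 493 in the TK-/- tagged libraries, ranges that did not overlap. The relations below pool both groups, and their permutations ignored group. They cannot separate a difference between the groups from libraries varying together within them. Across the 8 libraries, Pearson's r with the summed leukocyte marker level was 0.76 for *Ncf1* (exact permutation p = 0.0144, adjusted 0.0866 over 6 relations). Spearman's rho for it was 0.69 (exact permutation p = 0.0694, adjusted 0.192). For *Cybb* r was 0.76 (exact permutation p = 0.0541, adjusted 0.0965) and rho 0.43 (exact permutation p = 0.299, adjusted 0.360). None of the 6 relations had an adjusted p under 0.05, while those of *Cybb*, *Ncf1* and *Cyba* did when libraries were scaled by total counts (adjusted exact permutation p = 0.0255, 0.0237 and 0.00685). Without control-tagged replicate 2 and TK-/- tagged replicate 3, the libraries farthest from the median of the marker level, r was 0.21 for *Ncf1* and −0.39 for *Cybb*, so that both rest on those libraries. For *Ncf4* r was 0.69 with all libraries (exact permutation p = 0.0643, adjusted 0.0965) and 0.65 without them, and rho was 0.64 (exact permutation p = 0.0962, adjusted 0.192). For *Cyba* r was 0.64 and 0.48 in the same order (exact permutation p = 0.0617, adjusted 0.0965, with all libraries) and rho was 0.71 (exact permutation p = 0.0576, adjusted 0.192). For *Hmox1* r was 0.43, and −0.28 without the same libraries. The part of leukocytes in the levels of the oxidase subunits was not tested.

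Genes that work beside these oxidases or make reactive oxygen in other ways were taken as a list of 14, of which *Nox1* and *Noxa1* did not reach the filter. Of the other 12, 5 were higher and 7 lower. An unadjusted p under 0.05 was reached by 3, where 8.96% of all genes reached it. These 3 were *Maob*, *Aox1* and *Duox1*. Of the 12, 0 were called, beside 0.00738% of all genes. *Maob*, the mitochondrial monoamine oxidase that releases hydrogen peroxide, had 45.6 ± 5.39 normalized CPM in the control-tagged and 61.5 ± 10.7 in the TK-/- tagged libraries (SD, n = 4 per group; log2 fold change 0.43, SE 0.13, FDR = 0.453, edgeR). *Aox1*, an aldehyde oxidase, had 25.6 ± 3.08 and 35.7 ± 7.42 (log2 fold change 0.48, SE 0.15, FDR = 0.453). *Duox1*, a dual oxidase known from thyroid and airway, had 0.898, 1.45, 1.21 and 0.880 against 0.325, 0.266, 0.316 and 0.638. It reached the CPM minimum in only 2 libraries, both control-tagged, so that the filter favoured a lower value in the other group, and it rests on 3 to 20 counts per library. Its groups did not overlap, as in 4.98% of all genes (log2 fold change −1.50, SE 0.38, FDR = 0.442, edgeR).

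Superoxide dismutases and catalase did not pass the test in either direction, with 2 higher, 2 lower and all 4 intervals below a 1.5-fold change either way. *Sod2*, the mitochondrial dismutase, had 537 ± 57.4 normalized CPM in the control-tagged and 596 ± 69.0 in the TK-/- tagged libraries (SD, n = 4 per group), with a log2 fold change of 0.15. *Sod1*, the dismutase of the cytosol, had 351, 221, 543 and 289 against 303, 352, 417 and 303. Both its extremes were control-tagged, and the log2 fold change was −0.03 (SE 0.23, FDR = 0.980, edgeR). *Sod3*, the secreted form bound to matrix and vessel walls, had 71.9, 101.3, 72.1 and 69.1 against 65.7, 72.8, 55.4 and 71.9. Control-tagged replicate 2 stood above the rest and TK-/- tagged replicate 3 below it (log2 fold change −0.24, SE 0.14, FDR = 0.626, edgeR). *Cat*, the peroxisomal catalase, had 263, 242, 229 and 266 against 259, 278, 289 and 267 (log2 fold change 0.13, SE 0.09, FDR = 0.714, edgeR).

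Of the 6 peroxiredoxins and sulfiredoxin, 6 were higher and 1 lower by fitted value, with a median log2 fold change of 0.13 beside −0.00 over all genes, and 0 passed the test. Their summed level was 1569 ± 99.3 and 1710 ± 123 normalized CPM (SD, n = 4 per group). *Prdx3*, which clears hydrogen peroxide in the mitochondrial matrix, had 252, 230.3, 283 and 252 in the control-tagged and 229.7, 298, 288 and 262 in the TK-/- tagged libraries, so that the groups overlapped over most of their ranges. *Prdx6*, which reduces phospholipid hydroperoxides, had 222 ± 16.8 and 249.7 ± 19.6 (log2 fold change 0.17, SE 0.10, FDR = 0.629, edgeR). *Prdx1*, *Prdx2* and *Prdx5* had log2 fold changes of 0.13, 0.13 and 0.14. The exception in direction was *Srxn1*, which repairs overoxidized peroxiredoxins, with 44.2 ± 2.25 and 40.9 ± 3.42 and a log2 fold change of −0.11. All 7 intervals stayed below a 1.5-fold change either way. The cardiomyocyte markers were higher in the TK-/- tagged libraries for 7 of 8 genes. An unadjusted p under 0.05 was reached by 2 of them, where 8.96% of all genes reached it. The summed levels of these markers were 60968 to 85962 against 77128 to 99600, with none at 0. Their part in the peroxiredoxin levels was not tested.

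In the thioredoxin system 4 of 6 members were higher and 2 lower, and 0 passed the test. *Txnip* (ENSMUSG00000038393, chromosome 3, 96557957 to 96561883), which glucose induces, had the widest spread of the abundant members. Its normalized CPM was 551, 516, 532 and 604 in the control-tagged and 714, 993, 471 and 403 in the TK-/- tagged libraries. The group means were 551 ± 38.4 and 645 ± 268 (SD, n = 4 per group), and both the highest and the lowest libraries were TK-/- tagged (log2 fold change 0.23, SE 0.23, FDR = 0.800, edgeR). Its exons share 606 bases with *Gm15441* on the opposite strand. *Txn1*, cytosolic thioredoxin, was the steadiest of the 55, with 64.3 ± 2.87 and 66.6 ± 3.01. *Txnrd1*, the selenoprotein that reduces it, had 81.9 ± 7.17 and 75.3 ± 5.34.

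Among the glutathione peroxidases, 2 were higher and 3 lower, and 0 passed the test. *Gpx4* had 762, 554, 1056 and 644 normalized CPM in the control-tagged and 661, 703, 802 and 639.6 in the TK-/- tagged libraries. Control-tagged replicates 3 and 2 were its highest and lowest, and the log2 fold change was −0.10 (SE 0.18, FDR = 0.893, edgeR). *Gpx1*, the main cytosolic peroxidase of hydrogen peroxide, had 121, 131, 130.4 and 115 against 113, 113, 101 and 116. The groups met only at 115 and 116, with a log2 fold change of −0.17 (SE 0.09, FDR = 0.601, edgeR; exact permutation p = 0.0571). *Gpx3* ranged from 297 to 579, with its extremes both TK-/- tagged.

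The enzymes of glutathione synthesis and reduction summed to 81.4 ± 5.45 and 81.6 ± 4.80 normalized CPM (SD, n = 4 per group), and all 4 intervals stayed below 1.5-fold. *Gclc*, the catalytic subunit of glutamate-cysteine ligase, which sets the rate of synthesis, had 18.3 ± 1.08 and 17.5 ± 1.93. *Gclm*, its modifier subunit, had 19.6 ± 3.85 and 22.1 ± 3.53. *Gsr*, which regenerates glutathione from its disulfide, had 24.6, 29.5, 22.8 and 22.8 against 26.5, 23.9, 23.9 and 23.1, with control-tagged replicate 2 highest.

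The glutathione S-transferases, which join glutathione to electrophiles, were the largest role with 18 members, of which 11 were higher and 7 lower and 0 passed the test. Their summed level was 896 ± 107 and 993 ± 116 normalized CPM (SD, n = 4 per group). *Gstm2* (ENSMUSG00000040562, chromosome 3, 107981702 to 107986453) had 103, 101, 115 and 96.7 in the control-tagged and 124, 136, 129 and 109 in the TK-/- tagged libraries. The groups overlapped through control-tagged replicate 3 and TK-/- tagged replicate 4. The log2 fold change was 0.26 (SE 0.10, 95% interval 0.05 to 0.47, FDR = 0.505, edgeR; exact permutation p = 0.0571). *Gsta3* (ENSMUSG00000025934, chromosome 1, 21240589 to 21265661) had 3.44, 4.94, 3.09 and 6.48 against 5.36, 7.37, 6.56 and 7.49, with control-tagged replicate 4 inside the range of the other group. It rests on 46 to 94 counts per library, with a log2 fold change of 0.58 (SE 0.23, 95% interval 0.07 to 1.09, FDR = 0.519, edgeR; exact permutation p = 0.0571). Both were among the 29 members that kept their direction under all alternatives. *Gstm2* and *Gsta3* were named for an unadjusted p under 0.05 in the same libraries, so their kept direction is not separate evidence. Without control-tagged replicate 1, or without TK-/- tagged replicate 2, 0 members had an unadjusted p under 0.05.

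Other transferases had single libraries far from the rest, or overlapped between groups. *Gstm1*, the most abundant transferase per kilobase at 170.5, had 227, 205, 283 and 229.9 normalized CPM in the control-tagged and 228, 265, 326 and 245 in the TK-/- tagged libraries (log2 fold change 0.17, SE 0.13, FDR = 0.736, edgeR). *Gstp1* had 96.0, 70.9, 167 and 79.6 against 80.0, 85.5, 105 and 81.9, and its close copy *Gstp2* had 4.04, 2.76, 9.48 and 3.04 against 3.01, 3.37, 4.66 and 4.07. Both copies were highest in control-tagged replicate 3. *Gsto2* reached the CPM minimum in only 2 libraries, both TK-/- tagged, so that the filter itself favoured a higher value in that group. Its fitted log2 fold change was 0.60 (SE 0.38, FDR = 0.670, edgeR), from 7 to 21 counts per library. The mu, alpha and pi classes hold near-identical copies, so the split of reads between such genes is uncertain.

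The extreme values, of the members as of all genes, fell mostly in a few libraries. Control-tagged replicate 2 was the highest of the 8 libraries in 11 members (20%) and the lowest in 18 (32.7%), where it was so in 19.5% and 18.8% of all genes. Control-tagged replicate 3 was highest in 11 and lowest in 10 members, or 20% and 18.2% of them, with 22.1% and 23.2% of all genes. TK-/- tagged replicate 2 was highest in 13 members and lowest in 4, or 23.6% and 7.27% of them, with 14.8% and 14.6% of all genes. These 13 included *Prdx1*, *Prdx3*, *Prdx5*, *Prdx6*, *Sod2*, *Gstm2* and *Txnip*. In 8 members (14.5%, against 7.38% of all genes) control-tagged replicate 3 was highest and control-tagged replicate 2 lowest, among them *Gpx4*, *Sod1*, *Gstp1* and the mitochondrial thioredoxin *Txn2*. In 5 members, *Cybb*, *Ncf1*, *Sod3*, *Gpx1* and *Txnrd1*, control-tagged replicate 2 was highest and TK-/- tagged replicate 3 lowest (9.09%, against 6.28% of all genes). In 3 members, *Gstk1*, *Gstm1* and *Prdx2*, the order was the opposite (5.45%, against 4.69% of all genes). Beside this, the 6 fibroblast markers summed to 1548 in control-tagged replicate 2 and 1055 to 1274 in the rest of its group, and to 567 in TK-/- tagged replicate 3 and 883 to 1316 in the rest of its group. All 6 were lower by fitted value in the TK-/- tagged libraries, with 0 at an unadjusted p under 0.05. Of the 6 endothelial markers 5 were lower and 4 had an unadjusted p under 0.05, beside 8.96% of all genes. The sums of the 6 ran from 1375 to 1708 and from 1243 to 1373. No leukocyte, fibroblast or endothelial marker was at 0. The part of these cell types in the order of the libraries was not tested. Red blood cell markers ran from 309 to 766 and from 359 to 601, and atrial markers from 787 to 1310 and from 503 to 1431. None of 6 adipocyte markers reached the filter, with *Lep*, *Plin1* and *Retn* at 0. Of 6 neutrophil markers 3 reached it, with sums of 6.19 to 9.80 and 5.98 to 12.4. Unlike the leukocyte markers, all 3 were higher by fitted value in the TK-/- tagged libraries, with 0 at an unadjusted p under 0.05.

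**Figure D4:**
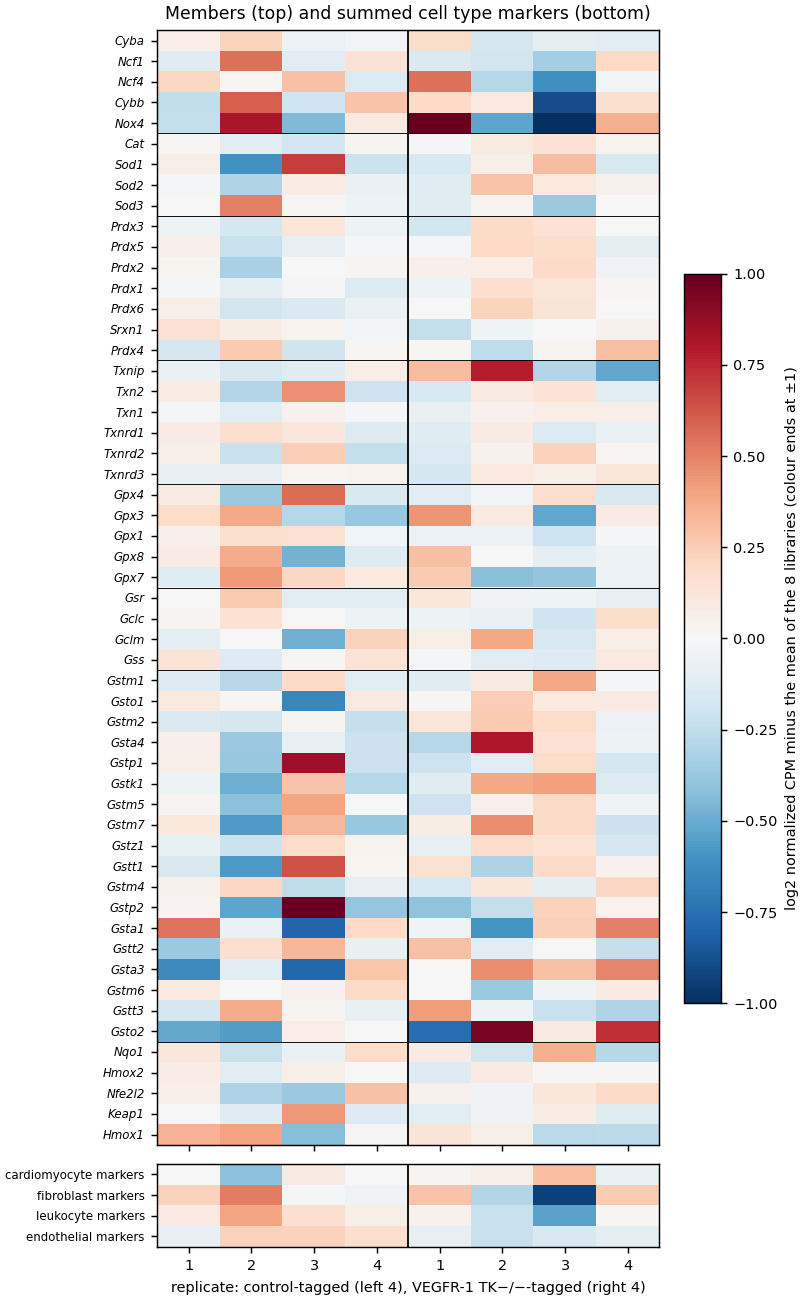
Log2 of the normalized CPM of 54 of the 55 members in each of the 8 libraries, as the difference from the gene's mean over all libraries (colour), with members grouped by role. Control-tagged replicate 2 is lowest in 18 members and highest in 11 (18.8% and 19.5% of all genes), and no block of rows separates the groups.

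The wider network of these pathways was read from further lists of genes. In each of them 0 genes were called, beside 0.00738% of all genes. Of 12 genes that act with NRF2, 9 were higher and 3 lower, with a median log2 fold change of 0.09. Of 17 further NRF2 targets that reached the filter, 6 were higher and 11 lower, with a median of −0.06, and *Slc7a11*, the cystine importer, did not reach it. In neither list did a gene have an unadjusted p under 0.05, where 8.96% of all genes did. Among 13 other genes of glutathione metabolism, 10 were higher and 3 lower. An unadjusted p under 0.05 was reached by 2 of them, *Chac1* and *Ggt5*, where 8.96% of all genes reached it. *Chac1*, which degrades glutathione, had a log2 fold change of 0.55 (SE 0.23, FDR = 0.522, edgeR), and *Ggt5*, which cleaves it outside cells, −0.33 (SE 0.13, FDR = 0.518, edgeR). Of 18 glutaredoxins, methionine sulfoxide reductases, sestrins and related genes, 13 were higher and 5 lower. An unadjusted p under 0.05 was reached by 1 of them, again beside 8.96% of all genes. It was *Nxn*, nucleoredoxin, with a log2 fold change of −0.34 (SE 0.13, FDR = 0.513, edgeR). Of 9 genes that supply NADPH in mitochondria, 7 were higher and 2 lower, and of 9 genes for making selenoproteins, 4 were higher and 5 lower, with medians of 0.04 and −0.04.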

How the data were processed

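LV RNA was sequenced in 8 libraries, 4 per genotype tag. The authors trimmed reads with Trim Galore 0.4.4, aligned them to GRCm38 with STAR 2.5.4b and counted them per gene with featureCounts, and they deposited 1 table of whole-number counts without normalization. Use of strand and of multiply aligned reads in counting is not given in the sources used here. Both could move reads between paralogs and overlapping genes.

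Here, the 13542 genes that reached a CPM of 1 in 2 or more libraries were scaled by TMM and tested in one fit with edgeR 4.0.16 (quasi-likelihood F test, no covariates) in R 4.3.3. Log2 values used a prior count of 2. Exact 2-sided permutation tests compared single genes and correlations (Python 3.11.15), with a smallest p of 0.0286 for 4 against 4 libraries. Libraries held 11449137 to 16239670 counts, so that 11.4 to 16.2 counts stand behind a CPM of 1. Results were recomputed with DESeq2 1.42.0, the likelihood ratio test, RLE factors, total counts, no filter, the replicate number as a block, and each library left out. Leaving out 2 libraries together was added after seeing the data. The fits were tested on simulated counts whose changes were larger than that of any member. That test does not show how often changes of the members' size would be found. Within groups, every pair of libraries differed beyond sampling noise (chi-square over its degrees of freedom 7.20 to 53.7). Named genes were those with an unadjusted p under 0.05, those with the widest spread, the NADPH oxidase genes and the most abundant gene of each role, and other members were picked after their values were seen. The members and lists were chosen with earlier results of these data known. Symbols came with the deposited counts. Coordinates and exon lengths came from GENCODE M21, a later release than the one the paper counted with. The values of 1 member are not reported here, and counts over the 55 members include it.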

Additional observations from a re-analysis of the deposited data

Results flagged for a closer look

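In 4 of 110 groups of 4 libraries, each of the 55 members in each of the 2 genotype groups, 1 library lay far from the other 3 by Dixon's criterion at its 95% level, which chance passes in about 1 of 20 groups. *Cybb* was lowest in TK-/- tagged replicate 3, at 5.53 normalized CPM where the others had 10.9 to 11.7. *Sod3* was highest in control-tagged replicate 2, at 101.3 where the others had 69.1 to 72.1. *Prdx2* was lowest in the same library, at 327 where the others had 409.7 to 417. *Gsto1*, an omega-class transferase, was lowest in control-tagged replicate 3, at 96.2 where the others had 153 to 161.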

How the results depend on the processing

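Under all 15 alternatives 0 members were called, and the lowest FDR among them was 0.354. Over all genes, the likelihood ratio test called 53, DESeq2 32 and the fit without a filter 23, against 1 in the reported fit. With each library left out in turn, or with control-tagged replicate 2 and TK-/- tagged replicate 3 left out together, 0 to 3 genes were called, with 2 without control-tagged replicate 1, 3 without control-tagged replicate 2, 3 without control-tagged replicate 4, and 0 without control-tagged replicate 2 and TK-/- tagged replicate 3 together. Members with an unadjusted p under 0.05 numbered 1 under total counts and 0 to 5 with libraries left out. They numbered 0 without control-tagged replicate 1 (10.1% of all genes), 0, 1 and 1 without TK-/- tagged replicates 2, 3 and 4 (5.25%, 6.195% and 9.94%), and 5 of 55 without TK-/- tagged replicate 1 (8.62%). Members whose groups did not overlap numbered 0 to 6 with libraries left out, with 1, 2 and 3 without control-tagged replicates 1, 3 and 4 (10.2%, 7.27% and 9.42% of all genes), 5 without TK-/- tagged replicate 4 (10.3%) and 6 without TK-/- tagged replicate 1 (9.03%). The median log2 fold change of the members ranged from −0.0029 to 0.051.

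Against leukocyte markers, with both groups pooled, r under total counts was 0.85 for *Cybb*, 0.85 for *Ncf1* and 0.78 for *Cyba*. The adjusted exact permutation p was 0.0255, 0.0237 and 0.00685 in the same order, and the cause was not tested. With each library left out, r ranged from 0.38 to 0.85 for *Cybb*, 0.61 to 0.84 for *Ncf1*, 0.35 to 0.83 for *Ncf4*, 0.43 to 0.72 for *Cyba* and 0.17 to 0.73 for *Hmox1*.

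In 758 of 823 comparisons a member kept its direction, and 29 members kept it in all. The log2 fold changes that turned with libraries left out ranged from −0.31 to 0.19 for *Cybb*, −0.40 to 0.015 for *Ncf4*, −0.44 to 0.62 for *Nox4*, −0.053 to 0.028 for *Hmox2*, −0.21 to 0.031 for *Keap1*, −0.20 to 0.092 for *Nqo1*, −0.16 to 0.26 for *Gsta1*, −0.0048 to 0.27 for *Gstm1* and −0.040 to 0.16 for *Gstm4*. They ranged from −0.22 to 0.12 for *Gstm5*, −0.47 to 0.099 for *Gstp1*, −0.68 to 0.20 for *Gstp2*, −0.23 to 0.25 for *Gstt1*, −0.15 to 0.075 for *Gstt2*, −0.24 to 0.13 for *Gstt3*, −0.070 to 0.10 for *Gstz1*, −0.10 to 0.35 for *Gpx3* and −0.30 to 0.10 for *Gpx4*. They also ranged from −0.078 to 0.25 for *Gpx8*, −0.14 to 0.032 for *Gclc*, −0.077 to 0.067 for *Gsr*, −0.055 to 0.15 for *Prdx4*, −0.31 to 0.26 for *Sod1*, −0.19 to 0.12 for *Txn2*, −0.059 to 0.40 for *Txnip* and −0.064 to 0.17 for *Txnrd2*. Under total counts *Nqo1* turned to −0.012.

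With the replicate block, 0 members and 1 gene were called, 2 members had an unadjusted p under 0.05, the median was 0.03, and direction turned for *Nox4* (−0.045), *Nqo1* (−0.0056), *Gstt1* (0.025) and *Sod1* (0.034). Deviations of libraries with the same number correlated at −0.029, 0.029, 0.34 and −0.055, not every library correlated best with its own number, and the labels give no shared litter or batch, so the numbers were not taken as pairs. Counting error is large for *Gsto2* and *Duox1*, which have at most 21 counts in any library.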
